A study of Mus musculus with 32 samples.

Results

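The 10 genes that complete mitochondrial fatty acid beta-oxidation downstream of the acyl-CoA dehydrogenases were followed in mouse liver: Hadha, Hadhb, Echs1, Hadh, Acaa2, Eci1, Decr1, Etfa, Etfb and Etfdh. They were taken by name as members of the pathway, and all 10 were present among the 20076 genes of the count table and among the 11566 genes with enough counts to be tested. The livers came from male C57BL/6J mice that either lacked Acadm, the gene of medium-chain acyl-CoA dehydrogenase (MCAD-KO, here KO), or were wild type (WT). Both genotypes received a low-fat (LF) or a high-fat (HF) semisynthetic diet for 6 weeks and were then either fasted for 16 h or kept on the diet (fed). Their ages are labelled 7.5 to 16 without a unit. The WT mice were littermates of the KO mice. RNA was read from the 3′ end of polyadenylated transcripts, and levels are given as counts relative to library size, scaled between libraries (CPM). In such libraries the level of a gene depends on its own priming site, and therefore levels were compared between mice and not between genes.

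In mitochondria, an acyl-CoA dehydrogenase such as MCAD first removes hydrogen from an acyl-CoA and passes the electrons to the electron-transfer flavoprotein (ETF), a dimer of the products of Etfa and Etfb, from which the dehydrogenase encoded by Etfdh delivers them to ubiquinone. A hydratase, a 3-hydroxyacyl-CoA dehydrogenase and a thiolase then complete each round and release acetyl-CoA. For long chains all these steps are carried out by the trifunctional protein, built from the products of Hadha and Hadhb, and for shorter chains by the separate enzymes encoded by Echs1, Hadh and Acaa2. Eci1 and Decr1 encode an isomerase and a dienoyl-CoA reductase that make the double bonds of unsaturated fatty acids accessible. In fasted liver this pathway supplies acetyl-CoA for ketone bodies, and many of its genes are known targets of the fatty acid-activated receptor PPARα.

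In all 30 mice were used, 4 in each of the groups of genotype, diet and feeding state except 3 in WT LF fed and 3 in KO HF fasted. WT LF fed replicate 2 was left out as an outlier and KO HF fasted replicate 4 as heart tissue: 12 heart genes summed to 35461 CPM in this library and to at most 259 CPM in the others, and 10 hepatocyte genes to 794 CPM. In the mice used, the hepatocyte genes summed to between 38365 and 65776 CPM, total counts ranged from 2031053 to 4292200, and a member had between 106 and 4130 counts in each mouse. In the KO livers Acadm counts lay between 26 and 94 (n = 15), against 566 to 2752 in WT livers (n = 15). Several of the libraries used differed from the rest in ways that touch the results below, and 3 of them are described here. KO LF fasted replicate 1 lay a median of 0.491 log2 units per gene from the rest of its group, against 0.148 to 0.319 in the other 29 mice, and its deviations rose with the GC content of the last 500 bases of the transcript (Spearman's rho 0.333 across 3776 genes, against -0.26 to 0.147). Acinar pancreas genes summed to 17369 CPM in WT HF fasted replicate 2 and to 2616 CPM in KO HF fed replicate 1, and muscle genes to 1431 CPM in the latter. Muscle genes also reached 744 CPM among WT HF fed and 338 CPM among WT HF fasted mice, and adrenal cortex genes 239 CPM among KO LF fasted mice. KO HF fasted replicate 1 is described with the HF results.

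The promoters are shown first because Hadha and Hadhb, the subunits of 1 protein, start from the same stretch of DNA. On build GRCm38 Hadha (ENSMUSG00000025745) lies on the minus strand of chromosome 5 from 30118304 to 30155162 and Hadhb (ENSMUSG00000059447) on the plus strand from 30155248 to 30184593, so that these gene starts, from GENCODE, are separated by 85 bases. Of the other members, Echs1 lies on chromosome 7 (140105710 to 140116476, minus), Hadh on chromosome 3 (131233419 to 131272101, minus), Eci1 on chromosome 17 (24426641 to 24439348, plus) and Decr1 on chromosome 4 (15917240 to 15945507, minus). Etfa lies on chromosome 9 (55454508 to 55512243, minus), Etfb on chromosome 7 (43444083 to 43457800, plus) and Etfdh on chromosome 3 (79603788 to 79629500, minus), and all 10 are protein coding. Windows of 250 bases before to 50 bases after the start, taken from RefSeq (GRCm38.p6), were examined for 8 of the 10 members. The windows are placed on the starts of RefSeq, which can differ from the gene starts above. That of Etfdh ends at 79629017 and does not reach 79629500. The windows of Hadha and Hadhb have 228 bases in common. Here 4 windows are printed, that of Hadhb for the shared promoter, those of Eci1 and Etfdh as genes that were higher in the fasted mice, and that of Echs1 as a member without a detected change. Capitals mark AGGTCA (the half-site of nuclear receptors), CCAAT and GGGCGG (the GC box) on either strand.
Hadhb, chr5:30155003-30155302, plus strand: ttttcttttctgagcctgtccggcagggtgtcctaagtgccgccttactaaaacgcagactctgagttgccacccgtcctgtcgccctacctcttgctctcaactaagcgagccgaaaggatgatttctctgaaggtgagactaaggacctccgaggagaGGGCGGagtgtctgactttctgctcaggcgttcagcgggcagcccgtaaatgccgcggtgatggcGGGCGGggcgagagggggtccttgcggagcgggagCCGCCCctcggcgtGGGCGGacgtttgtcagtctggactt
Eci1, chr17:24426433-24426732, plus strand: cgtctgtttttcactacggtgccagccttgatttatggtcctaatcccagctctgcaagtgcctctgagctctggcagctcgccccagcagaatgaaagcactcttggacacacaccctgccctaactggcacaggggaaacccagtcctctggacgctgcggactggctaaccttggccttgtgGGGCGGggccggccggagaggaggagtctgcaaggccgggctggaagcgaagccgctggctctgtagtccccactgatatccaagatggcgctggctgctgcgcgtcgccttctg
Etfdh, chr3:79628718-79629017, minus strand: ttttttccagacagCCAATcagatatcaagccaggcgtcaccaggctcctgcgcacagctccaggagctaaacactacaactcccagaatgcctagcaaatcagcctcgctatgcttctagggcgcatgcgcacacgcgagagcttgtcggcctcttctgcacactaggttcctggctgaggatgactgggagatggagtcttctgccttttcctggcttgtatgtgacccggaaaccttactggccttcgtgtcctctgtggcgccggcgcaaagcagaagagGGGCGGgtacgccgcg
Echs1, chr7:140116372-140116671, minus strand: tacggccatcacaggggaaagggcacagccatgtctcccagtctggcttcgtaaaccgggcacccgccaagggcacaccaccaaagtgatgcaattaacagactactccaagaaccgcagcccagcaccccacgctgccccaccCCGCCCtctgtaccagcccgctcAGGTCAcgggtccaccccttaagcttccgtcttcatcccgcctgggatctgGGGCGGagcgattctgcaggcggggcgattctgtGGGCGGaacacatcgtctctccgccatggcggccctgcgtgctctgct
The half-site AGGTCA was present in the window of Echs1 alone among the 8 members, against 16.3% of 32851 mouse promoters of the same length. No member window held the direct repeat of AGGTCA with any 1 base between the copies, searched on both strands, which 0.0396% of all promoters held. GGGCGG was present in 7 of the 8 windows (35.7% of all promoters), with 4 matches in that of Hadhb and 4 in that of Hadh. The 1 match of Hadha lies in the bases shared with Hadhb and is also among the matches of Hadhb. CCAAT was present in 4 windows, those of Hadh, Etfa, Etfb and Etfdh (37.4%). These matches describe the letters of these windows only.

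Fasting raised most of the members. Averaged over the 4 combinations of genotype and diet, 8 of the 10 were higher in the fasted mice by edgeR's quasi-likelihood test at an adjusted p below 0.05 and 0 were lower, where 18.9% of all tested genes passed in either direction and 9.77% were higher. The median log2 fold change of the 10 was 0.54, against -0.00 over all genes. Hadhb, Eci1, Etfdh, Decr1 and Hadha rose between 1.66-fold and 2.03-fold, Etfb, Hadh and Acaa2 between 1.19-fold and 1.27-fold, and Etfa and Echs1 did not pass. In whole liver, fewer cells of a type and less RNA per cell cannot be told apart. Within the mice of lane 7 of the sequencer, where no WT LF fed mouse was run, 2 of the 10 passed, namely Decr1 and Eci1, where 3.33% of the genes tested in that fit passed, and the median was 0.44. Within lane 8, 7 passed, where 13.4% of the genes tested did, and the median was 0.57.

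The trifunctional protein genes were among those that rose. Hadhb, which encodes the thiolase subunit, had 45.2, 41.6 and 36.4 CPM in the WT LF fed mice and 93.9, 138, 102 and 94.4 CPM in the WT LF fasted mice. In KO mice on the same diet it had 49.7, 68.3, 37.4 and 39.4 CPM fed and 64.4, 153, 64.9 and 119 CPM fasted. The WT groups did not overlap, and the KO groups did, since fed replicate 2 exceeded fasted replicates 1 and 3. On HF, Hadhb had 55.2, 42.5, 52.4 and 65.8 CPM in WT fed mice and 103, 70.7, 133 and 102 CPM in WT fasted mice. It had 68.5, 42.3, 62.2 and 53.2 CPM in KO HF fed mice and 54.1, 110 and 119 CPM in KO HF fasted mice. Again all WT fasted mice lay above all WT fed mice, whereas KO HF fasted replicate 1 lay within the fed range. The average log2 fold change on fasting was 1.02 (standard error 0.14, adjusted p = 7.5e-07 by edgeR), and it was 1.38 in WT LF mice (adjusted p = 0.0017 by edgeR) and 1.06 in KO LF mice (0.0049).

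Hadha, the subunit with the hydratase and long-chain 3-hydroxyacyl-CoA dehydrogenase activities, had 187, 208 and 168 CPM in WT LF fed mice and 307, 375, 363 and 299 CPM in WT LF fasted mice. Its KO LF values were 190, 215, 193 and 175 CPM fed and 518, 473, 274 and 443 CPM fasted. On LF the fed and fasted groups did not overlap in either genotype. The HF values of Hadha were 193, 168, 205 and 233 CPM in WT fed and 272, 203, 347 and 316 CPM in WT fasted mice. In KO HF mice they were 198, 199, 204 and 180 CPM fed and 168, 333 and 290 CPM fasted. On HF the groups overlapped in both genotypes, through WT fasted replicate 2 and KO fasted replicate 1. The average change on fasting was 0.73 log2 units (standard error 0.10, adjusted p = 2.4e-07 by edgeR). Reads at the 3′ end of Hadha overlap Garem2 on the opposite strand, a gene that is not in the count table, and whether the counting used the strand is not given in the sources used here.

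The genes for unsaturated fatty acids rose as well. Eci1, the isomerase, had 157, 111 and 113 CPM in WT LF fed mice and 221, 288, 288 and 218 CPM in WT LF fasted mice, and 100, 123, 90.7 and 117 CPM in KO LF fed mice and 188, 414, 194 and 258 CPM in KO LF fasted mice. On HF it had 182, 137, 181 and 180 CPM in WT fed mice, 336, 194, 253 and 265 CPM in WT fasted mice, 173, 161, 155 and 165 CPM in KO fed mice and 160, 329 and 343 CPM in KO fasted mice. Fed and fasted mice were separated in WT LF, KO LF and WT HF, and in KO HF 1 fasted mouse, replicate 1, lay among the fed mice. The average log2 fold change of Eci1 was 0.92 (standard error 0.11, adjusted p = 6.5e-08 by edgeR). Decr1, the 2,4-dienoyl-CoA reductase, had 134, 95.6 and 116 CPM in WT LF fed mice and 227, 203, 206 and 205 CPM in WT LF fasted mice. It had 76.6, 94.0, 97.2 and 113 CPM in KO LF fed mice and 385, 268, 173 and 214 CPM in KO LF fasted mice. On HF, Decr1 had 147, 90.0, 161 and 144 CPM in WT fed mice and 197, 166, 179 and 218 CPM in WT fasted mice, and 163, 123, 130 and 93.0 CPM in KO fed mice and 137, 232 and 214 CPM in KO fasted mice. The same 3 comparisons as for Eci1 were without overlap for Decr1, and the average for Decr1 was 0.85 log2 units (standard error 0.11, adjusted p = 9.1e-08 by edgeR).

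Of the 3 genes of electron transfer to ubiquinone, Etfdh and Etfb rose on average and Etfa did not pass. Etfdh, whose product hands the electrons of ETF to ubiquinone, had 102, 113 and 92.9 CPM in WT LF fed mice and 259, 244, 241 and 255 CPM in WT LF fasted mice. Its KO LF values were 88.1, 123, 91.0 and 111 CPM fed and 71.0, 332, 195 and 257 CPM fasted. All WT fasted mice were above all WT fed mice, also on HF (129, 119, 113 and 118 CPM fed, 214, 146, 247 and 236 CPM fasted). In KO HF mice Etfdh had 144, 135, 125 and 135 CPM fed and 136, 224 and 207 CPM fasted. Among KO LF mice, fasted replicate 1 had the lowest value of both groups, and among KO HF mice fasted replicate 1 lay in the fed range. The average log2 fold change of Etfdh was 0.91 (standard error 0.13, adjusted p = 2.3e-06 by edgeR). Etfb, the beta subunit of ETF, rose by an average of 0.35 (standard error 0.09, adjusted p = 0.0059 by edgeR), from 443, 390 and 437 CPM to 678, 601, 589 and 687 CPM in WT LF mice. The change of Etfb was 1.55-fold in KO LF mice, 0.96-fold in WT HF mice and 1.17-fold in KO HF mice. Gm45233, a gene on the same strand that is not in the table, covers the 3′ end of Etfb. For Etfa, the alpha subunit, the average was 0.12 (95% interval -0.18 to 0.42, adjusted p = 0.66 by edgeR), with 192.9 to 301.9 CPM in the 15 fed mice and 53.4 to 392.7 CPM in the 15 fasted mice.

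Both extremes of Etfa in the fasted mice came from KO LF fasted, in which it had 53.4, 393, 241 and 271 CPM, and replicate 1 was the low mouse. In this mouse Etfa was 2.46 and Etfdh 1.84 log2 units below, and Etfb 1.02 above, the rest of the group, and the GC content of the last 500 bases was 33.8% for Etfa and 34.4% for Etfdh, the lowest of the members, and 55.4% for Etfb, the highest. Not all members followed this order, as Hadh with 53% lay 0.12 below and Decr1 with 41.6% lay 0.84 above the rest of the group. The part of this library in these values was not tested otherwise. Without it the average log2 fold change of Etfa was 0.20 (adjusted p = 0.056 by edgeR), that of Etfb 0.27 (0.0059) and that of Etfdh 0.98 (1.4e-11).

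Of the separate enzymes for shorter chains, Hadh and Acaa2 rose on average and Echs1 did not pass. Echs1, the short-chain hydratase, had 182.4 to 272.8 CPM in the fed mice (median 225.1) and 182.7 to 248.0 CPM in the fasted mice (median 209.1), which overlapped almost completely. Its average log2 fold change was -0.12 (95% interval -0.26 to 0.02, adjusted p = 0.26 by edgeR). Hadh, the 3-hydroxyacyl-CoA dehydrogenase for shorter chains, had 360.4 to 774.2 CPM fed (median 575.8) and 558.6 to 865.8 CPM fasted (median 713.2). The average rise of Hadh was 0.32 (standard error 0.08, adjusted p = 0.0021 by edgeR), although fed and fasted mice overlapped in all but the WT LF groups. Acaa2, a thiolase gene on chromosome 18 (74779197 to 74806208, plus strand), had 691.8 to 1004.4 CPM fed and 803.1 to 1640 CPM fasted, the highest of these in KO LF fasted replicate 1. The average log2 fold change of Acaa2 was 0.25 (standard error 0.08, adjusted p = 0.025 by edgeR), which became 0.22 (adjusted p = 0.061) without KO HF fasted replicate 3 and 0.19 (0.035) without KO LF fasted replicate 1.

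**Figure D1:**
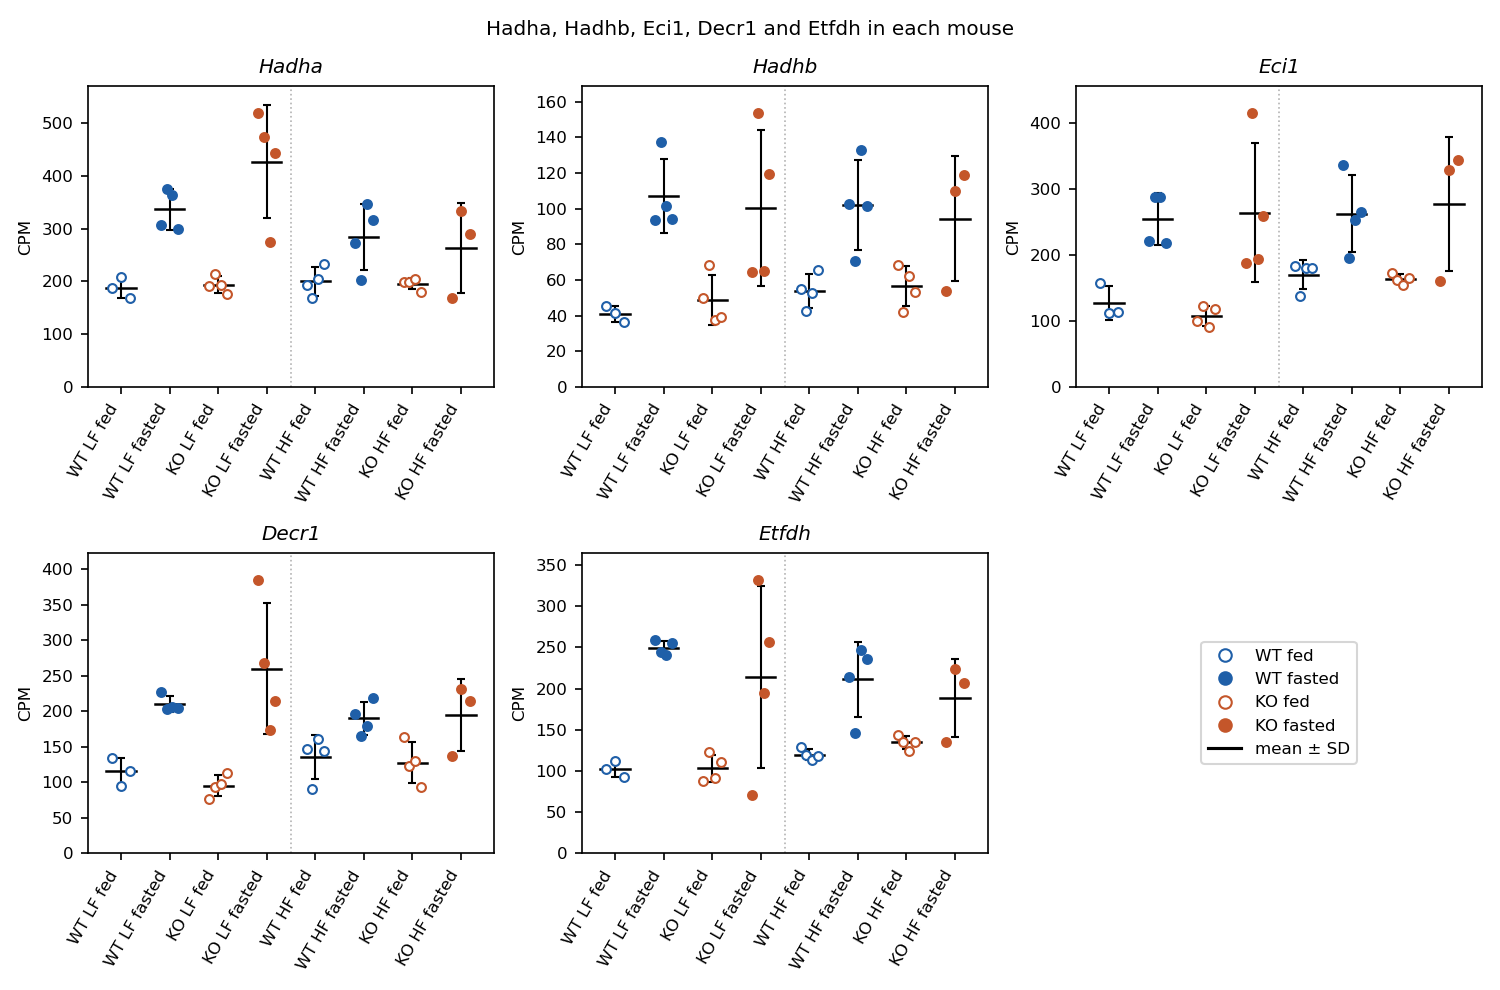
CPM (linear axis from 0) of Hadha, Hadhb, Eci1, Decr1 and Etfdh in each of the 30 mice by group, open circles for fed and filled circles for fasted mice, WT in blue and KO in orange, with mean ± SD. In WT LF all fasted mice lie above all fed mice for the 5 genes, and in KO HF fasted replicate 1 lies at or below the highest fed mouse.

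**Figure D2:**
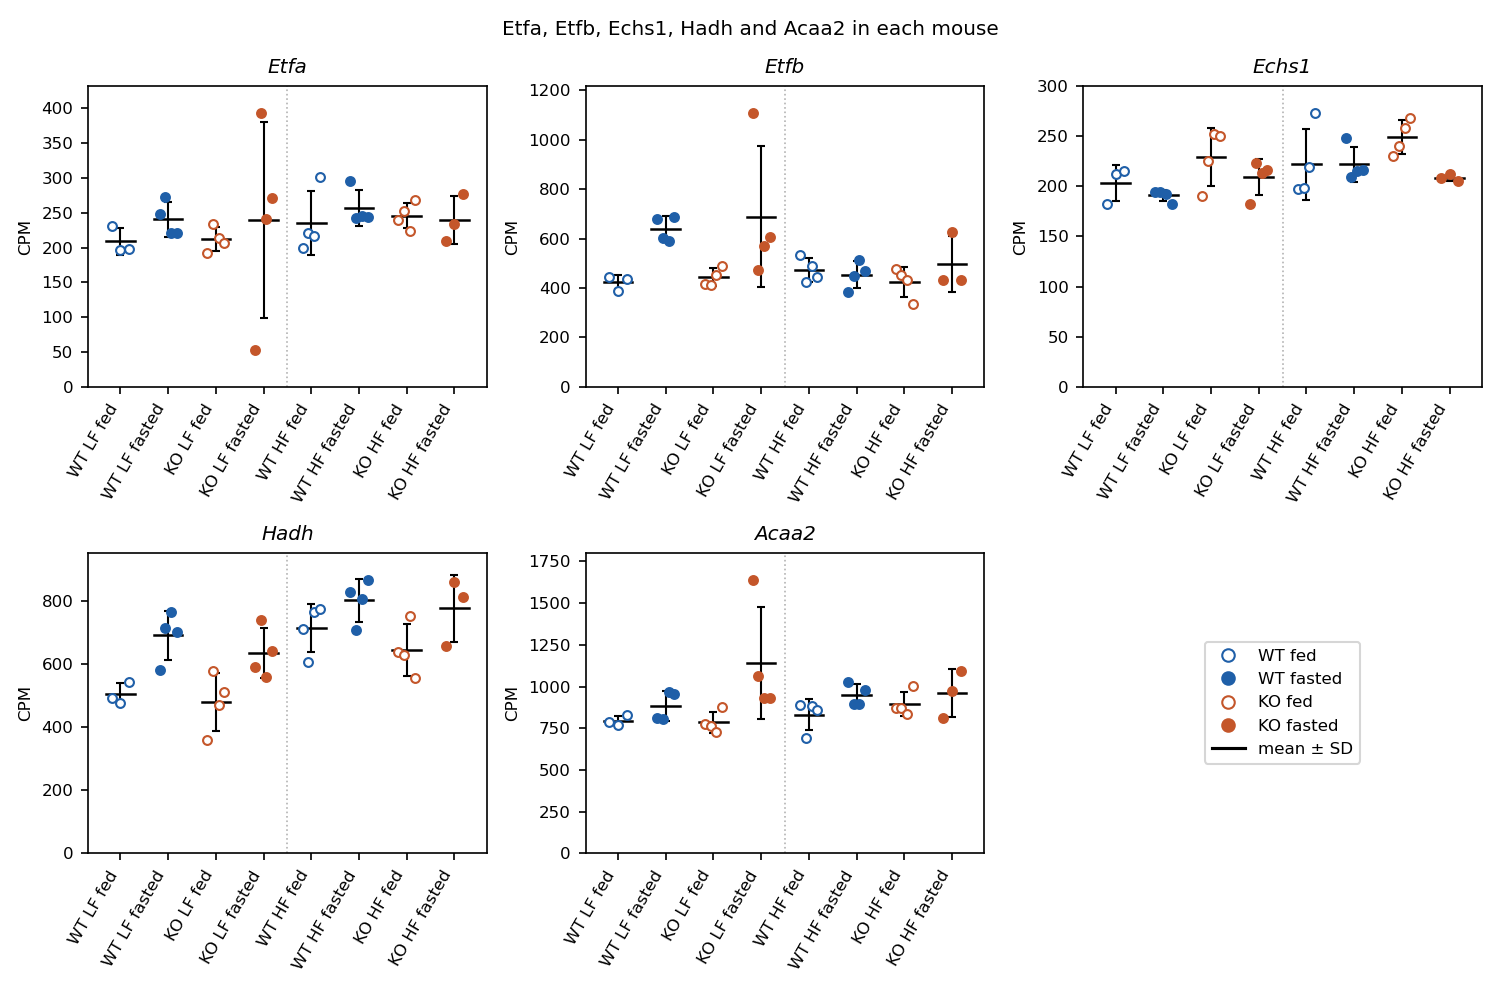
CPM (linear axis from 0) of Etfa, Etfb, Echs1, Hadh and Acaa2 in each of the 30 mice, drawn in the same way. Fed and fasted mice overlap widely for Etfa and Echs1, and KO LF fasted replicate 1 stands apart with 53.4 CPM of Etfa and 1106 CPM of Etfb.

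The 8 groups were ordered by mean CPM, and each was compared with the next. Of 7 neighbouring pairs per gene, a difference of means above the larger SD was found in 3 pairs for Etfdh, 2 each for Eci1 and Decr1, 1 each for Hadhb, Hadh and Etfb, and 0 for Hadha, Acaa2, Etfa and Echs1. For Hadhb the 4 fed groups were the lowest and the 4 fasted groups the highest, and the step above the SD lay between KO HF fed (56.5 ± 11.4 CPM, SD, n = 4) and KO HF fasted (94.4 ± 35.2 CPM, SD, n = 3). For Hadh the step lay between WT LF fed and KO LF fasted, and the only groups below it were the LF fed groups. In the pairs not counted above, the difference of means was within the larger SD. Since the groups were first sorted by these means, the gaps between neighbours are small by construction. A count of 0 therefore does not speak on groups further apart, as for Hadha, whose LF fed and fasted groups did not overlap.

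The response was then compared across the 4 combinations of genotype and diet. On LF, 5 members passed in WT mice (7.54% of all genes passed, 3.75% higher) and 7 in KO mice (13.8%, 7.26% higher), all of them higher in the fasted state. Hadhb, Etfdh, Eci1, Decr1 and Hadha passed in both genotypes, with log2 fold changes of 0.84 to 1.38 in WT and 1.06 to 1.45 in KO, and Etfb (0.63, adjusted p = 0.014 by edgeR) and Acaa2 (0.54, adjusted p = 0.014) passed in KO alone. Without KO LF fasted replicate 1 neither Etfb (0.31, adjusted p = 0.19 by edgeR) nor Acaa2 (0.31, 0.13) passed in KO, and Etfa did (0.51, 0.024). Etfb also passed in WT LF mice without KO LF fasted replicate 1 (0.59, adjusted p = 0.0070 by edgeR) or replicate 2 (0.037), and Hadh in KO LF mice without fed replicate 2 (0.50, 0.036) or fasted replicate 3 (0.46, 0.0499). Without WT LF fed replicate 3, Decr1 no longer passed in WT LF mice (0.74, adjusted p = 0.098 by edgeR). The difference between the genotypes in the fasting effect was itself tested, and 0 of the 10 members passed by edgeR (0% of all genes), with 0 at an unadjusted p below 0.05, 0 by DESeq2 and 0 by limma voom. Decr1 had a difference of 0.36, higher in KO (95% interval -0.07 to 0.78), which was 0.23 without KO LF fasted replicate 1, where that of Eci1 was 0.28.

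On HF, 0 of the 10 members passed in WT mice (0.424% of all genes passed) and 0 in KO mice (0.527%) by edgeR, with 5 and 4 members at an unadjusted p below 0.05. Of the 11566 tested genes 1063 in WT and 871 in KO mice had such a p. DESeq2 called 1 member in WT, Hadhb, and 0 in KO, and limma voom called 0 in both. The shares of all genes called by these other methods are not given here. The log2 fold changes of Hadhb (0.92, 95% interval 0.39 to 1.45), Etfdh (0.82, 0.31 to 1.32) and Eci1 (0.62, 0.19 to 1.06) were the largest in WT, and Eci1 (0.76, 0.30 to 1.23), Hadhb (0.74, 0.18 to 1.30) and Decr1 (0.61, 0.17 to 1.05) in KO. Fed and fasted WT HF mice did not overlap in 5 members, all higher in the fasted mice (3.23% of all genes), namely Hadhb, Etfdh, Eci1, Decr1 and Acaa2. In KO HF mice only Echs1 was without overlap, lower in the fasted mice (5.20% of all genes). WT LF and KO LF mice had 7 and 4 members without overlap, all higher in the fasted state (9.96% and 6.73% of all genes).

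KO HF fasted replicate 1 and WT HF fasted replicate 2 had the lowest values among the HF fasted mice for Hadhb, Eci1, Etfdh and Hadha. Over 14 PPARα target genes their mean centred log2 CPM was -0.50 and -0.44, within the range of the 8 HF fed mice (-1.69 to -0.18), whereas the other 5 HF fasted mice had 0.97 to 1.42. Their part in the HF results was tested only by leaving out each in turn. Without WT HF fasted replicate 2, Hadhb (1.06, adjusted p = 0.036 by edgeR) and Etfdh (0.96, 0.0496) passed in WT HF mice, and without KO HF fasted replicate 1, Eci1 (1.04, 0.013) passed in KO HF mice. Etfdh also passed in WT HF mice without KO LF fasted replicate 1 (0.82, adjusted p = 0.0092 by edgeR), a mouse of another group that enters through the shared estimate of the spread.

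The difference between the diets in the fasting effect was negative, that is smaller on HF, for all 10 members, with a median of -0.42, against -0.01 over all genes. Leaving out KO HF fasted replicate 1 brought the median to -0.28, leaving out KO LF fasted replicate 2 brought it to -0.27, and with all 32 mice it was -0.27 with 1 member positive. By edgeR 0 of the 10 passed the test of this difference, where 2.46% of all genes passed, with 3 members at an unadjusted p below 0.05, and DESeq2 and limma voom called 0. Of the 11566 tested genes 1533 had an unadjusted p below 0.05 by edgeR. Decr1 had -0.61 (95% interval -1.04 to -0.18, adjusted p = 0.13 by edgeR), Etfb -0.53 (-0.91 to -0.15, adjusted p = 0.15) and Hadha -0.52 (-0.91 to -0.13, adjusted p = 0.17). Without KO LF fasted replicate 1, Etfdh passed with -0.66 (adjusted p = 0.023 by edgeR).

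**Figure D3:**
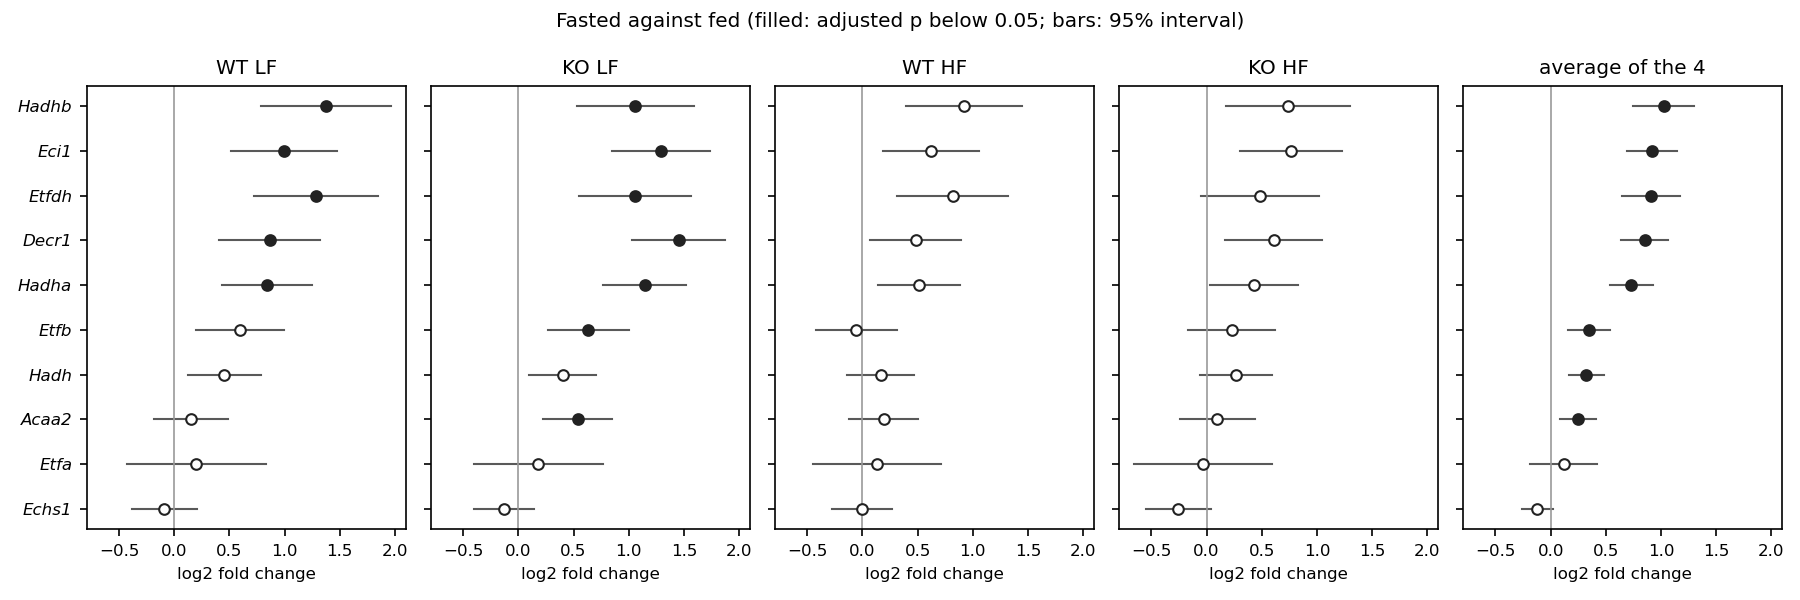
Log2 fold change, fasted against fed, of the 10 members in each combination of genotype and diet and on average, with 95% intervals, filled where edgeR's adjusted p is below 0.05. Filled points number 5 in WT LF, 7 in KO LF, 0 on HF in either genotype and 8 in the average, and the points of Echs1 and Etfa are unfilled in all panels.

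Diet by itself changed 1 member. Hadh was higher on HF than on LF by an average of 0.36 (standard error 0.08, adjusted p = 0.0048 by edgeR), where 3.49% of all genes passed in either direction and 2.26% were higher. Eci1, the next by p, had 0.29 (adjusted p = 0.17 by edgeR), and passed without KO LF fasted replicate 2 (0.36, 0.028) or KO HF fasted replicate 1 (0.35, 0.048). Hadh had a median of 491.8 CPM in the 7 LF fed and 674 CPM in the 8 HF fed mice, and of 670.9 CPM in the 8 LF fasted and 811 CPM in the 7 HF fasted mice. All 4 single comparisons of Hadh were positive, from 0.22 to 0.51, and none passed alone. With all 32 mice the average of Hadh was 0.40 (adjusted p = 0.082 by edgeR) and within lane 7 it was 0.31 (0.46). In the 4 single comparisons 0 members passed by edgeR, where 0.0778% (WT fed), 1.12% (WT fasted), 0.00865% (KO fed) and 1.68% (KO fasted) of all genes did. At an unadjusted p below 0.05 there were 1, 1, 3 and 2 members, and 604, 1419, 840 and 1510 of the 11566 tested genes. DESeq2 called Hadha in KO fasted mice, lower on HF (-0.70, adjusted p = 0.024), and 0 members in the other 3, and limma voom called 0 in all 4. For these methods the shares of all genes are again not given here. By edgeR the same difference of Hadha had an adjusted p of 0.064, and it passed without KO HF fasted replicate 2 (-0.90, 0.037) or KO LF fasted replicate 3 (-0.86, 0.012).

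Among fed mice the diet difference was positive for 10 of the 10 members in WT and for 9 in KO. The medians were 0.20 and 0.22, against 0.007 and 0.008 over all genes. These fed mice also enter the difference between the diets in the fasting effect, so these results are not independent. On HF, Etfdh had higher CPM than in every LF mouse in both genotypes, and so had Eci1 in KO and Hadh in WT mice. These are 2 members without overlap in WT fed mice (4.34% of all genes higher) and 2 in KO fed mice (2.95%). In WT fasted mice Echs1 was higher (3.79%) and Etfb lower (3.44%) on HF without overlap, and in KO fasted mice the diets overlapped in all 10, where 9.36% of all genes did not.

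The loss of MCAD was not accompanied by a detected change in any of the 10 genes. By edgeR 0 of the 10 passed in each of the 4 comparisons of KO with WT and in their average, where 0.00865% of all genes passed in each, which is Acadm alone. By DESeq2 and by limma voom there were also 0. An unadjusted p below 0.05 was reached by 1 member, Acaa2 in LF fasted mice (0.37 higher in KO, 95% interval 0.06 to 0.68, adjusted p = 0.80 by edgeR), and by 0 in the other 3 comparisons and in the average. Of the 11566 tested genes 684 reached it in LF fasted mice. In LF fed, HF fed and HF fasted mice 450, 316 and 288 genes did, and in the average 335. Without KO LF fasted replicate 1 this difference of Acaa2 was 0.14 (adjusted p = 1 by edgeR), and the 1 member with an unadjusted p below 0.05 was Etfa (0.33, adjusted p = 1). KO and WT mice overlapped in all 10 members in all 4 comparisons, where 6.68% (LF fed), 2.13% (LF fasted), 2.65% (HF fed) and 5.27% (HF fasted) of all genes did not overlap. The difference between the genotypes in the diet effect passed for 0 members (0% of all genes), with 0 at an unadjusted p below 0.05. The averages ran from -0.10 (Hadh) to 0.12 (Acaa2), and their 95% intervals together from -0.31 to 0.30, so that an average difference beyond these bounds was outside the interval of every member. In the 4 single comparisons the intervals of the members together reached from -0.73 to 0.82.

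**Figure D4:**
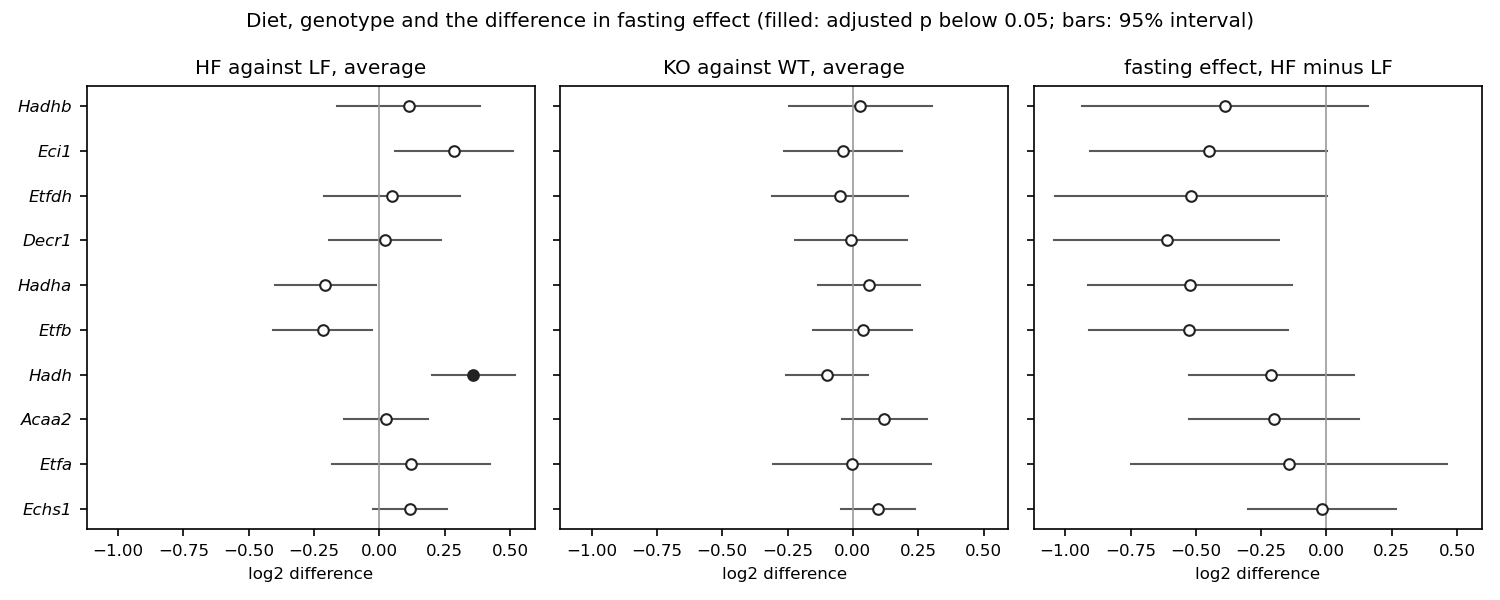
Log2 differences of the 10 members with 95% intervals for HF against LF and for KO against WT, each averaged over the 4 matched comparisons, and for the fasting effect on HF minus that on LF. Hadh is the one filled point (adjusted p below 0.05), in the diet panel, the KO against WT points lie between -0.10 and 0.12, and all 10 points of the last panel are below 0.

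Since Hadha with Hadhb and Etfa with Etfb encode the subunits of 1 complex each, the ratio of their counts was examined within each mouse, where library size cancels. The Hadha to Hadhb ratio was 4.12, 4.98 and 4.59 in WT LF fed mice and 3.27, 2.72, 3.56 and 3.16 in WT LF fasted mice. In WT HF mice it was 3.49, 3.94, 3.90 and 3.54 fed and 2.64, 2.87, 2.61 and 3.10 fasted. In both WT comparisons every fasted mouse lay below every fed mouse, as the rise of Hadhb exceeded that of Hadha. The log2 ratio differed by -0.52 on LF and by -0.41 on HF, each with p = 0.0286 in a two-sided exact permutation test, the smallest p these groups allow, and 0.114 after adjustment over 8 tests. In KO mice the differences were 0.12 on LF (exact p = 0.829) and -0.30 on HF (exact p = 0.20), with overlap. The KO LF fasted mice had ratios of 8.02, 3.08, 4.21 and 3.71, the first in replicate 1, without which the difference was -0.16.

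The Etfa to Etfb ratio was 0.523, 0.506 and 0.455 in WT LF fed mice and 0.366, 0.454, 0.375 and 0.321 in WT LF fasted mice, a log2 difference of -0.39 (exact permutation p = 0.0571, adjusted p = 0.152). These groups did not overlap. The other 3 comparisons overlapped, with log2 differences of 0.20 in WT HF, -0.69 in KO LF and -0.26 in KO HF and exact permutation p from 0.371 to 0.657. In KO LF the ratio of fasted replicate 1 was 0.0485 against 0.425 to 0.83 in the other 3 fasted mice, and without it the difference was 0.18. No ratio passed after adjustment.

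**Figure D5:**
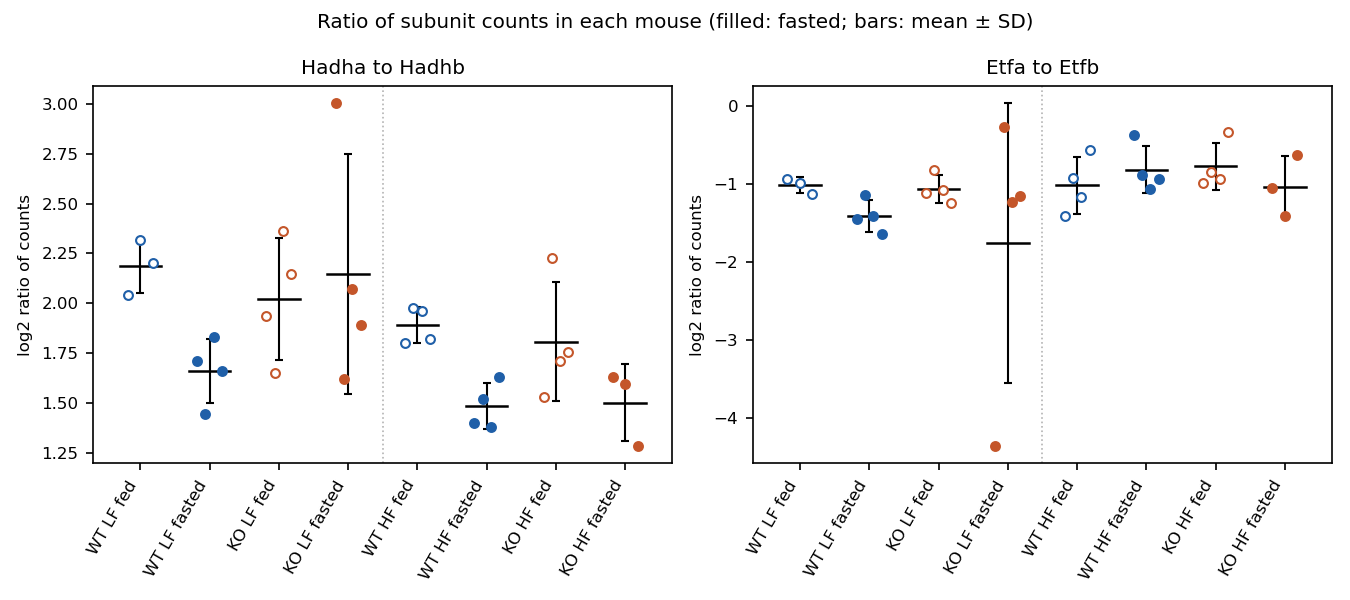
Log2 ratio of Hadha to Hadhb counts (left) and of Etfa to Etfb counts (right) in each mouse, open circles fed and filled circles fasted, WT in blue and KO in orange, with mean ± SD. The WT fasted mice lie below the WT fed mice for Hadha to Hadhb on both diets, and KO LF fasted replicate 1 is the highest value on the left and the lowest on the right.

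The lists below are set beside the average fasting comparison, in which 18.9% of all tested genes passed in either direction and 9.77% were higher. Of the neighbouring steps, the carnitine shuttle carries fatty acids into mitochondria. All 5 tested genes of the carnitine shuttle were higher in the average comparison (median log2 fold change 1.40), among them Slc25a20, the carnitine-acylcarnitine carrier (1.15, standard error 0.08), Slc22a5, the carnitine transporter of the plasma membrane (2.13, 0.16), and Cpt1a, the carnitine palmitoyltransferase of the outer membrane (1.40, 0.12), each with an adjusted p below 0.05 by edgeR. All 5 also had a smaller fasting effect on HF by the test of that difference, where 2.46% of all genes passed in either direction. That test includes KO HF fasted replicate 1 and WT HF fasted replicate 2, and their part in this result was not tested. Of 8 acyl-CoA dehydrogenases 4 were higher and 0 lower (median 0.44), led by Acadm (1.07, 0.11), Acadl (0.69, 0.08) and Acadvl (0.45, 0.08). In KO mice the Acadm counts are those of the disrupted gene.

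Of 10 auxiliary fatty acid enzymes 4 rose and 2 fell. Eci2, the second enoyl-CoA isomerase (1.17, standard error 0.09), and Hsd17b10 (1.24, 0.13) were higher and Echdc1 was lower (-1.16, 0.11). In the peroxisomal pathway 10 of 14 genes rose and 1 fell (median 0.80), among them Acaa1a, a thiolase (1.29, 0.12), Acox2, an acyl-CoA oxidase (0.57, 0.07), and Decr2, the peroxisomal dienoyl-CoA reductase (0.81, 0.11). The list of 14 PPARα targets had 12 higher and 0 lower (median 1.92), led by Cyp4a31 (4.16, 0.29), Acot1 (3.66, 0.26) and Cyp4a10 (4.22, 0.31). Of the 14, 7 had a smaller fasting effect on HF, where 2.46% of all genes passed in either direction. In KO HF fasted replicate 1 and WT HF fasted replicate 2 this list lay at -0.50 and -0.44, within the HF fed range. It lay at 0.97 to 1.42 in the other 5 HF fasted mice. The part of these mice in the count was not tested.

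Of 13 further ETF-linked dehydrogenases and ETF factors, 3 were higher and 0 lower on average fasting (median -0.02): Etfrf1, a regulator of ETF (0.65, standard error 0.11), Slc25a32, the mitochondrial carrier of flavin adenine dinucleotide or folate (1.08, 0.19), and Dmgdh, dimethylglycine dehydrogenase (0.32, 0.09). Among 18 genes that mark mitochondrial content 3 were higher and 2 lower (median 0.01), with Cs, citrate synthase, lower (-0.52, 0.08) and Vdac2 (0.25, 0.07) and Tomm20 (0.61, 0.16) higher. Beside the counts of both lists, 18.9% of all tested genes passed on average fasting and 9.77% were higher. No list other than that of the acyl-CoA dehydrogenases, through Acadm, had a gene that passed between KO and WT on average.

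Marker genes of other cell types were set beside the fasting comparison. Summed over 8 genes, Kupffer cell and macrophage markers had 395 to 557 CPM in fed and 236 to 745 CPM in fasted mice, with medians of 481 and 327. The 6 erythroid markers had 547 to 1257 CPM fed and 443 to 1143 CPM fasted, with medians of 808 and 592. The 6 endothelial markers had 275 to 386 and 248 to 411 CPM, and 8 stellate cell markers had 454 to 726 and 394 to 646 CPM. Hepatocyte genes had medians of 50632 CPM fed and 45766 CPM fasted. The part of cell composition in the values of the members was not tested. Without WT HF fasted replicate 2 and KO HF fed replicate 1, the mice with acinar pancreas genes, 8 members again passed on average (median 0.57), and without KO LF fasted replicate 1 in addition 8 (median 0.54). Of all genes 2131 of 11502 and 2412 of 11476 passed in these fits, respectively.

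Over the 30 mice, the tested genes whose centred log2 CPM lay closest to the mean profile of the members were Slc25a13, the mitochondrial aspartate-glutamate carrier (root mean square difference 0.120 log2 units, against a standard deviation of the profile itself of 0.308), Akap1 (0.138), March5 (0.156), Pnpla8 (0.158) and Ccni (0.164). The members themselves were at 0.213 (Hadh) to 0.458 (Etfa) from their own mean profile. The listed genes were picked for the smallest distance and the members were not, so these distances cannot be compared.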

How the data were processed

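The authors prepared 3′ libraries from liver RNA, sequenced single reads, mapped them with HISAT 0.1.5 to GRCm38 and counted them per gene with HTSeq 0.6.1p1 in union mode. The deposited values are raw counts for 20076 Ensembl genes in 32 mice, without normalization. The sources differ on the Ensembl release, and the strand setting of the counting is not given in the sources used here. Symbols and positions came from GENCODE vM21, which matched 19913 identifiers, and promoters from RefSeq. Groups, replicate numbers and lanes came from the labels, which name 2 lanes where the methods describe smaller pools.

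One model with the 8 groups was fitted over 30 mice with edgeR 4.0.16 in R 4.3.3 (TMM scaling, filterByExpr and its quasi-likelihood test in robust mode). The p-values were adjusted by Benjamini and Hochberg's method over 11566 genes, with a threshold of 0.05. Standard errors were derived from the F statistic, and intervals are 95%. Fold changes are log2 and CPM values are scaled by TMM. Subunit ratios were computed on counts plus 0.5 and tested by two-sided exact permutation. The tests were tried on simulated data. Alternatives were DESeq2 1.42.0, limma 3.58.1 voom, other size factors, filters, sets of mice and covariates. Mice of a group were taken as separate animals, and none of 42 pairs differed by as little as sampling noise (lowest chi-square per gene 3.97).

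The members, the gene lists and the tests were chosen with earlier results of these data known. All members are named, with Acadm as a check of the labels, up to 3 genes per pathway list by smallest p in the average fasting comparison, and the 5 genes closest to the mean profile of the members. The result of 1 pathway list is not reported here.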

Additional observations from a re-analysis of the deposited data

Results flagged for a closer look

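In 4 of 72 groups of 4 mice checked over the members and the subunit ratios, 1 mouse lay far from the other 3, with a gap over the range of the group above Dixon's limit of 0.829. Chance alone flags about 1 in 20 such groups. Acaa2 was 692 CPM in WT HF fed replicate 2, against 858 to 889 CPM in the other mice of the group. In the same mouse Eci1 was 137 CPM, against 180 to 182 CPM. Decr1 was 227 CPM in WT LF fasted replicate 1, against 203 to 206 CPM, and Etfa was 296 CPM in WT HF fasted replicate 1, against 243 to 246 CPM. A signal outside the comparisons was the sum of 35461 CPM over 12 heart genes in KO HF fasted replicate 4, which was left out, against 0 to 259 CPM in the mice used.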

How the results depend on the processing

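Of 258 counts of members called under alternatives other than leaving out 1 mouse, 244 stayed within 1.5 times the reported count. The number called on WT HF fasting (0) was 1 with DESeq2, 1 with 28 mice, 2 with 27 mice, 2 with the mice of the 2 groups alone and 1 within lane 8. Of all genes tested, 152 of 11502 passed with 28 mice, 214 of 11476 with 27 mice and 86 of 12261 within lane 8. In the reported fit 49 of 11566 passed. On KO LF fasting (7) the number of members called was 4 with all 32 mice, 4 with the mice of the 2 groups and 2 within lane 7. On KO HF fasting (0) it was 3 within lane 8, and on average fasting (8) it was 2 within lane 7. Over all genes, KO LF fasting had 735 of 11502 with all 32 mice and 530 of 11303 within lane 7, against 1595 of 11566 as reported. KO HF fasting had 171 of 12261 within lane 8, against 61 of 11566. Average fasting had 376 of 11303 within lane 7, against 2187 of 11566. For diet the number of members called was 1 in KO fed mice (0) with the mice of the 2 groups, 1 in KO fasted mice (0) with DESeq2, and 0 on average (1) with all 32 mice and within lane 7. Over all genes the diet average had 81 of 11502 with all 32 mice and 117 of 11303 within lane 7, against 404 of 11566. The sets of 28 and 27 mice were chosen after the data had been seen, and the causes of these differences were not tested. Shares of all genes are not given here for DESeq2, limma voom, the mice of the 2 groups alone or the fits without 1 mouse. Counts of members from those fits therefore stand without such a share. Leaving out 1 mouse at a time gave 4 to 6 members called on WT LF fasting, 0 to 2 on WT HF, 6 to 8 on KO LF, 0 to 1 on KO HF and 7 to 8 on average, 0 to 1 for diet in KO fasted mice, 1 to 2 for diet on average, and 0 to 1 for the fasting effect on HF minus LF.

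The differences that turned direction had not passed any test in the reported analysis. Echs1 in WT HF mice (-0.00) was 0.0096 with limma voom, 0.0024 without a filter, 0.0031 with at least 10 counts, 0.00026 with all 32 mice, 0.0011 with 31 mice, 0.027 with 28 and 0.027 with 27 mice, 0.0052 with the 2 groups alone, 0.011 with the replicate block and 0.16 within lane 7. Within lane 8, Etfa was -0.29 and Etfb 0.15 in WT HF mice and Etfa 0.18 in KO HF mice. Etfa was -0.12 in KO LF mice with limma voom and 0.21 in KO HF mice with all 32 mice. Leaving out 1 mouse gave -0.058 to 0.11 for Echs1 and -0.12 to 0.015 for Etfb in WT HF mice, -0.17 to 0.51 for Etfa in KO LF mice, and -0.0046 to 0.21 for Acaa2 and -0.15 to 0.057 for Etfa in KO HF mice. For the subunit ratios in KO LF mice it gave -0.16 to 0.30 for Hadha to Hadhb and -1.19 to 0.18 for Etfa to Etfb.

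Mice with the same replicate number did not deviate together (median correlation 0.0031 over 98 pairs, -0.21 to 0.19), so that the numbers are not taken as pairs. With the replicate block 5, 0, 7 and 0 members were called on fasting in WT LF, WT HF, KO LF and KO HF and 8 on average. Of all 11566 genes 795, 44, 1536 and 30 passed in these comparisons and 2124 on average. No fit within lane 7 was possible for comparisons with WT LF fed mice.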
